A study of Mus musculus with 3 samples.

Results

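MHC class I molecules carry peptides from proteins made inside the cell to the cell surface, where CD8+ T cells inspect them. The proteasome cuts the proteins, the TAP transporter moves the peptides into the endoplasmic reticulum, and tapasin holds the class I molecule beside TAP while a peptide is loaded. In lymphocytes and after exposure to interferon gamma, 3 catalytic subunits of the proteasome are exchanged for immunoproteasome subunits. T cells themselves display class I molecules at high levels, and NLRC5 is the transactivator that sustains their transcription in lymphocytes.

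The genes described here are 10 of the 25638 in the deposited count table, chosen by name for these roles. Earlier results of these data were known when they were chosen. H2-K1 and H2-D1 encode classical class I heavy chains and B2m their light chain. Tap1 and Tap2 encode the peptide transporter and Tapbp encodes tapasin. Nlrc5 encodes the transactivator. Psmb8, Psmb9 and Psmb10 encode the immunoproteasome subunits LMP7, LMP2 and MECL1. All 10 were in the table and above 100 CPM, the normalised unit defined below, in every library.

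The series compared effector memory, central memory and naive CD8+ T cells from mouse spleen, with 1 RNA-seq library for each. All 3 groups were described as wild type and untreated. Their T cell receptor use and their level of a proliferation marker, given below, differed widely. Effector memory cells are antigen-experienced cells that patrol blood and tissues, central memory cells are antigen-experienced cells that keep lymph node entry, and naive cells have not met their antigen. The strain, the age of the mice, the surface markers used to sort and the number of animals behind a library are not stated in the labels. With 1 library per group no difference has a replicate check and no test between groups was possible, so every comparison is between single libraries.

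Levels are counts per 1000000 (CPM), scaled by an effective library size from the trimmed mean of M values (TMM). Levels per kilobase of exon divide by the union of all annotated exons of a gene. That union can exceed the length of a single transcript, so comparisons between genes on this scale depend on the annotation. For a call, a gene had to reach 5 CPM in 1 of the 2 libraries compared, differ by 2-fold or more, and have a 95% counting interval clear of 1. Calls made this way rank differences by size, and no test stands behind them. Intervals are exact counting intervals and cover counting error only. In bulk samples, fewer cells of a type and less RNA per cell cannot be told apart.

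The promoters are shown first, as a description of the sequence around the annotated starts. Their part in the levels below was not tested. Sequences are RefSeq windows on GRCm38.p6, from 250 bases before to 50 bases after the annotated start, 5′ to 3′ along the gene. They were found for 8 of the 10 genes, and Tap2 and Nlrc5 are named only. Capitals mark matches, on either strand, to 6 motifs. The interferon-stimulated response element was searched as TTTC, any 2 bases and TTTC. The core bound by interferon regulatory factors was searched as TTTCNNTT, which overlaps every match of the first. The gamma-activated site was searched as TTCNNNGAA, and the class I NF-kB site as the 10 bases that form the first run of capitals in H2-K1. The last were CCAAT and the CREB core TGACG, which the X2 box of class I promoters resembles.
H2-K1 (chr17:34000298-34000597, minus strand): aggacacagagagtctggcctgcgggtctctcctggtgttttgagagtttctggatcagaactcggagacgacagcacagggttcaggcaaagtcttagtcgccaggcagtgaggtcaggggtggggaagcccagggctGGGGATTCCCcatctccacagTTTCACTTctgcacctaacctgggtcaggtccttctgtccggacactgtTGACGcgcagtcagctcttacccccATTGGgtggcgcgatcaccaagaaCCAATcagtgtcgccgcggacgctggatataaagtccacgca
H2-D1 (chr17:35262844-35263143, plus strand): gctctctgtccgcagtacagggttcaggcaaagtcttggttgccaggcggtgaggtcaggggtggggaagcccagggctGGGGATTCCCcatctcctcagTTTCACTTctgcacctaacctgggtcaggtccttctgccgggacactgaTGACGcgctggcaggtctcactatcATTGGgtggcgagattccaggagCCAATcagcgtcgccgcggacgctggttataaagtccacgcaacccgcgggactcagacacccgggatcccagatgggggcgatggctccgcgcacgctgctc
B2m (chr2:122147437-122147736, plus strand): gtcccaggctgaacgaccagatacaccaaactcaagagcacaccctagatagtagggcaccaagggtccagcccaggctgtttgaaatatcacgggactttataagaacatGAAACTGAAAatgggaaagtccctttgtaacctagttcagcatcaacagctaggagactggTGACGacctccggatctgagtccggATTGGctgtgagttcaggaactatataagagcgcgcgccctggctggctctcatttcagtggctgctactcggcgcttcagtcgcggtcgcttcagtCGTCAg
Tap1 (chr17:34187306-34187605, plus strand): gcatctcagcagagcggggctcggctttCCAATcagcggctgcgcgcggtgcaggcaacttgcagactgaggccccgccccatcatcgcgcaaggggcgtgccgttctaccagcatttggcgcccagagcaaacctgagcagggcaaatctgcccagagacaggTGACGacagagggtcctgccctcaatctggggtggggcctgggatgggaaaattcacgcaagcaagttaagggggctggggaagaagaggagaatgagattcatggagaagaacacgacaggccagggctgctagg
Psmb8 (chr17:34197945-34198244, plus strand): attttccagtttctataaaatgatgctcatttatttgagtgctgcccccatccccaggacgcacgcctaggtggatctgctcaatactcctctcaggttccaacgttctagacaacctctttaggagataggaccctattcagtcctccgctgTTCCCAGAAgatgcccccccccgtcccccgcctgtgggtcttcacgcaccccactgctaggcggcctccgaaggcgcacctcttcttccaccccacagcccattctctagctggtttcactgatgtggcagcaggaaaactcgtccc

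The windows of H2-K1 and H2-D1 aligned over 228 positions, of which 206 were identical (90.4%). Both held the same motifs in the same order: the NF-kB site, the interferon regulatory factor core, TGACG, an inverted CCAAT and a CCAAT. The NF-kB site occurred in 28 of 27025 promoter windows of the genome (0.104%), and H2-K1 and H2-D1 were the only 2 of the 8 genes with it. It was searched in the exact form of the class I site, so its presence in class I heavy chain genes is no independent finding. B2m held GAAACTGAAA, a minus strand match to the interferon-stimulated response element that 3.49% of all windows have, beginning 139 bases before the start. Tap1 and Psmb9 are transcribed away from each other from 1 shared stretch, and their windows overlapped by 275 bases. That stretch held 1 CCAAT and 1 TGACG.

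Psmb8 had 1 gamma-activated site match, TTCCCAGAA, beginning 97 bases before the start, a motif found in 8.47% of all windows. CCAAT was present in 6 of the 8 windows, against 37.9% of all windows, and TGACG in 5 of the 8, against 21.0% of all windows. The overlapping windows of Tap1 and Psmb9 each count the same CCAAT and the same TGACG. The interferon regulatory factor core was present in 3 of the 8, H2-K1, H2-D1 and B2m, against 24.2% of all windows. Psmb10 had none of the 6 motifs in its window. A match describes letters and is not evidence of a bound site. The windows of H2-D1, Tapbp, Psmb8 and Psmb9 lie inside the GENCODE bounds of these genes, which are given below. Their matches thus lie before the RefSeq start but not before the GENCODE start.

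**Figure D1:**
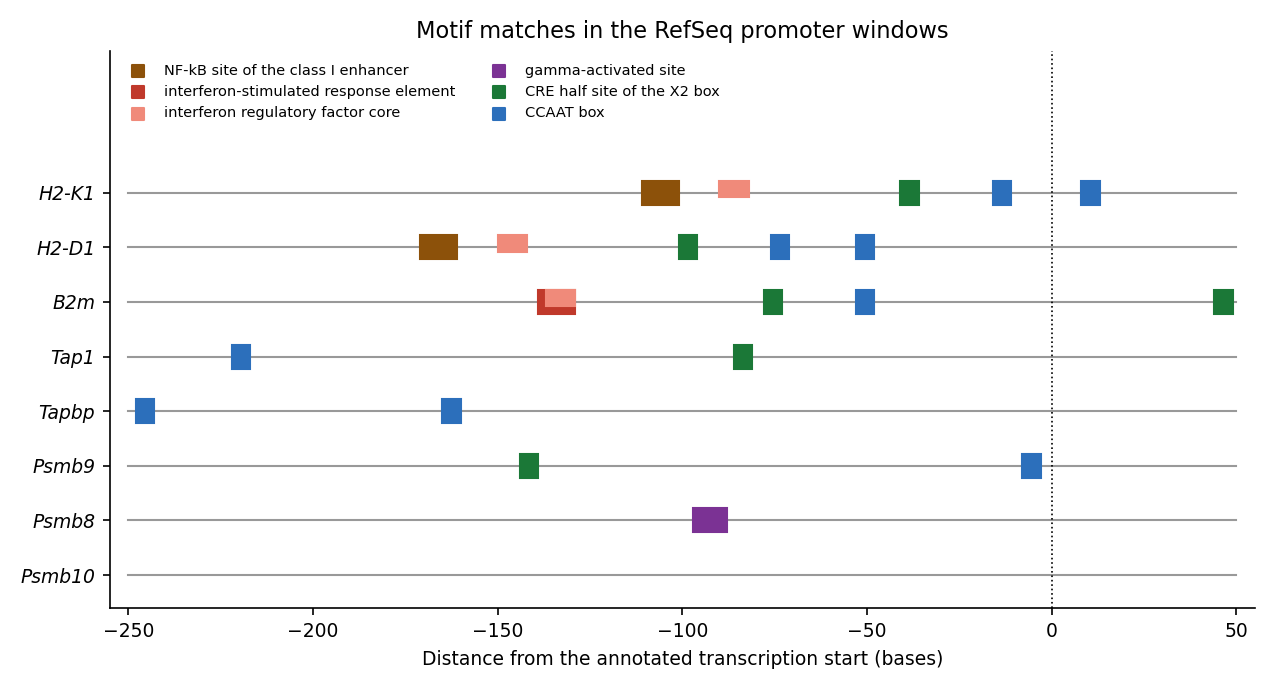
Motif matches in the promoter windows of 8 genes, plotted by distance in bases from the annotated transcription start (dotted line); each coloured block is 1 match and its width is the motif's length. H2-K1 and H2-D1 show the same order of motifs, shifted by the position of the annotated start, while Psmb8 shows only the gamma-activated site match and Psmb10 none.

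The libraries held 33087462 counts for effector memory, 35846315 for central memory and 26876909 for naive cells. T cell markers were present in all 3 libraries, and Cd8a stood at 408 CPM in effector memory, 1063 in central memory and 1868 in naive cells. Some markers of other cell types differed between the groups. The 5 B cell markers summed to 2.81 CPM in effector memory, 6.17 in central memory and 30.5 in naive cells, with Ms4a1 at 0 in both memory libraries. The 6 macrophage and monocyte markers summed to 25.3, 8.04 and 7.66 CPM in the same order, of which 1, Cd68, reached 5 CPM, and Adgre1 was at 0 in all 3. Of 5 dendritic cell markers, summing to 12.5, 2.23 and 3.02 CPM, 1, Xcr1, reached 5 CPM, and Flt3 and Siglech were at 0 in all 3. The 5 NK cell markers summed to 82.6, 126 and 38.4 CPM, of which Eomes made up 79.9, 74.4 and 38.1 CPM. Ncr1 stood at 12.2 CPM in central memory and at 0 in effector memory and naive cells. Klrb1c stood at 33.0 CPM in central memory, 1.91 in effector memory and 0.216 in naive cells. The 3 CD4 T cell markers summed to 94.1, 39.3 and 7.40 CPM, almost all of it Zbtb7b in the memory libraries, while Cd4 stood at 0.281, 0.251 and 2.12 CPM. Plasma cell, neutrophil and red cell precursor markers each summed to under 5 CPM in every library. The part of these cells in the results below was not tested.

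The libraries also differed in cell cycle and receptor use. Mki67, a proliferation marker, stood at 1819 CPM in effector memory, 301.5 in central memory and 2.62 in naive cells. The beta chain segment Trbv12-1 made up 98.4% of Trbv counts in effector memory, 99.6% in central memory and 7.13% in naive cells. The part of either in the results below was not tested.

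None of the 10 genes was called in any comparison. The shares given beside them cover all genes from 5 CPM up, while the 10 genes stood well above that level. The shares are thus not matched to the 10 genes by level. In effector memory against naive cells, 0 of 10 were called, where 37.9% of 10087 genes were. In central memory against naive cells, 0 of 10 were called, where 16.3% of 9737 genes were. In effector memory against central memory, 0 of 10 were called, where 27.6% of 9975 genes were. Within this range of under 2-fold the ratios lay on both sides of 1. The counts were deep enough that the interval of the ratio excluded 1 for 8, 10 and 10 genes in these comparisons. These intervals leave out the choice of scaling. Among the genes counted, H2-D1 in effector memory against naive cells fell below 1 under some other scalings. So did Tapbp and Psmb10 in central memory against naive cells.

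Heavy and light chains of the class I molecule were among the most abundant transcripts. H2-K1 (ENSMUSG00000061232.16, chromosome 17, 33996017 to 34000347, minus strand) stood at 2414 CPM in effector memory, 4084 in central memory and 3722 in naive cells. Effector memory was the low library, and of the 10 genes H2-K1 had the lowest ratio of effector memory to central memory. The ratio was 0.649 (interval 0.643 to 0.655) for effector memory against naive cells, 0.591 (0.586 to 0.596) for effector memory against central memory and 1.10 (1.09 to 1.11) for central memory against naive cells. Per kilobase of exon, H2-K1 stood at 821.7 CPM and ranked 45th of all genes in effector memory, at 1390.0 CPM and 16th in central memory and at 1267 CPM and 18th in naive cells.

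H2-D1 (ENSMUSG00000073411.11, chromosome 17, 35262730 to 35267499, plus strand) stood at 2541 CPM in effector memory, 3087 in central memory and 2494 in naive cells. Central memory was the high library, at a ratio of 1.24 (1.23 to 1.25) to naive cells, and effector memory was at 0.823 (0.816 to 0.830) of central memory. Effector memory and naive cells were nearly level, at a ratio of 1.02 (1.01 to 1.03) that lay below 1 under total counts, DESeq2 size factors and upper quartile factors. Per kilobase of exon, H2-D1 stood at 985 CPM in effector memory, 1197 in central memory and 967 in naive cells. H2-K1 was thus above H2-D1 per length in central memory and naive cells and below it in effector memory. The count of H2-K1 divided by that of H2-D1, which does not depend on the scaling between libraries, was 0.9503 in effector memory, 1.32 in central memory and 1.49 in naive cells. That is 1.57-fold lower (1.55 to 1.59) in effector memory than in naive cells and 1.39-fold lower (1.38 to 1.41) than in central memory.

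The heavy chains resemble each other and the H2-Q genes, so reads may have been divided among them. Of the 50-base stretches of the longest annotated transcript, 8.1% for H2-K1 and 14.3% for H2-D1 also occurred in another gene. For 100-base stretches the shares were 0.0% and 4.6%. No source used here gives the read length or the treatment of reads with several matches, so these heavy chain values are uncertain to that extent.

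B2m (ENSMUSG00000060802.8, chromosome 2, 122147686 to 122153083, plus strand), beta-2 microglobulin, stood at 1892 CPM in effector memory, 1664 in central memory and 1882 in naive cells, and none of its 50-base stretches occurred in another gene. The ratio was 1.01 (0.994 to 1.02) for effector memory against naive cells, below 1 under each of the other 4 scalings. It was 0.885 (0.874 to 0.895) for central memory against naive cells and 1.14 (1.12 to 1.15) for effector memory against central memory. With TMM factors the highest library exceeded the lowest by 1.14-fold, a span smaller than that of all but 4.15% of genes that reached 5 CPM and had a count in every library. Under DESeq2 size factors the span of B2m was 1.22-fold and that of H2-D1 was smaller, at 1.15-fold. Per kilobase of exon, B2m was above both heavy chains in every library, at 2200.0 CPM in effector memory, 1935 in central memory and 2188 in naive cells. The summed count of H2-K1 and H2-D1 per B2m count was 2.62 in effector memory, 4.31 in central memory and 3.30 in naive cells. It was 1.26-fold lower (1.25 to 1.28) in effector memory than in naive cells, and 1.304-fold higher (1.287 to 1.322) in central memory than in naive cells.

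**Figure D2:**
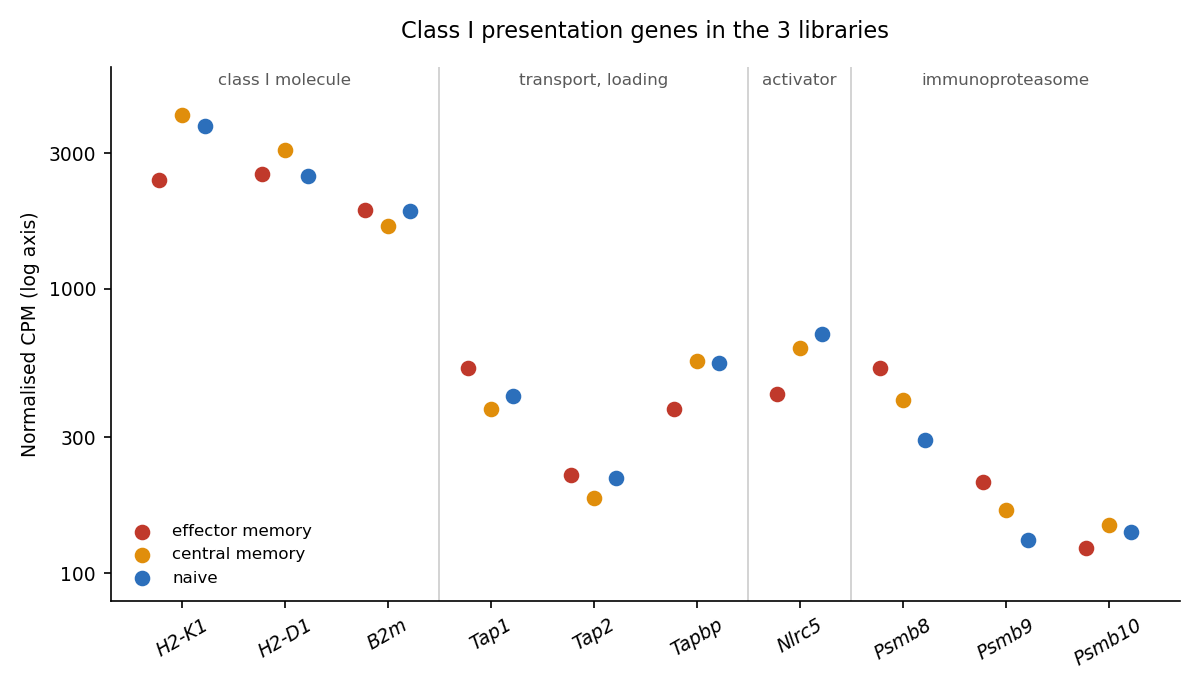
Normalised CPM (log axis) of the 10 genes in effector memory, central memory and naive libraries, 1 point per library and no error bar because each group has 1 library. Effector memory is the lowest point for H2-K1, Tapbp, Nlrc5 and Psmb10 and the highest for Psmb8, Psmb9 and Tap1. It is also the highest for Tap2 and B2m, where naive cells were higher under total counts and upper quartile factors, and for B2m under the other 2 scalings too.

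Among the peptide loading genes, Tap1 and Tapbp had opposite ratios in effector memory against naive cells. Against central memory both chains of the transporter had ratios opposite to that of Tapbp. Tap1 (ENSMUSG00000037321.17, chromosome 17, 34187553 to 34197225, plus strand) stood at 526.5 CPM in effector memory, 379 in central memory and 418 in naive cells. Tap2 (ENSMUSG00000024339.12, chromosome 17, 34203527 to 34216321, plus strand) stood at 221 CPM in effector memory, 184 in central memory and 215 in naive cells. Both chains of the transporter were lowest in central memory. For effector memory against naive cells the ratio was 1.26 (1.23 to 1.29) for Tap1 and 1.03 (0.992 to 1.06) for Tap2, the second lying below 1 under total counts and upper quartile factors.

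Effector memory against central memory gave ratios of 1.39 (1.36 to 1.42) for Tap1 and 1.203 (1.163 to 1.244) for Tap2. For central memory against naive cells the ratio was 0.906 (0.884 to 0.929) for Tap1 and 0.853 (0.824 to 0.884) for Tap2. The Tap1 count per Tap2 count was 2.38 in effector memory, 2.06 in central memory and 1.94 in naive cells, 1.23 times as high (1.18 to 1.28) in effector memory as in naive cells. TAP works as a pair of these 2 chains, and their transcripts were closer to a fixed proportion than those of Tap1 and Tapbp.

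Tapbp (ENSMUSG00000024308.15, chromosome 17, 33915899 to 33929292, plus strand) stood at 377 CPM in effector memory, 558 in central memory and 546.5 in naive cells. Effector memory was the low library, at 0.690 (0.674 to 0.707) of naive cells and 0.676 (0.660 to 0.691) of central memory. Central memory and naive cells were nearly level, at a ratio of 1.02 (1.0 to 1.04) that lay below 1 under each of the other 4 scalings. The Tapbp count per Tap1 count was 0.716 in effector memory, 1.47 in central memory and 1.31 in naive cells. It was 1.82-fold lower (1.76 to 1.89) in effector memory than in naive cells and 2.06-fold lower (1.99 to 2.12) than in central memory. Tapbp overlaps Zbtb22 on the same strand in the annotation. Tap2 overlaps the noncoding Gm15821 on the other strand, and B2m, Nlrc5, Psmb8 and Psmb10 also have annotated genes opposite them. No source used here gives the strand setting of the counting, so reads from such stretches cannot be told apart.

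Nlrc5 (ENSMUSG00000074151.13, chromosome 8, 94434356 to 94527272, plus strand) stood at 426 CPM in effector memory, 619 in central memory and 692 in naive cells. Effector memory was again the low library. The ratio was 0.616 (0.603 to 0.630) for effector memory against naive cells, the lowest of the 10 genes there, 0.689 (0.674 to 0.704) for effector memory against central memory and 0.894 (0.877 to 0.912) for central memory against naive cells. None of its 50-base stretches occurred in another gene. In the annotation 9330175E14Rik overlaps Nlrc5 by 748 bases on the other strand and Mir7072 by 60 bases on the same strand.

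The immunoproteasome subunits differed in their order of libraries. Psmb8 (ENSMUSG00000024338.15, chromosome 17, 34197721 to 34201454, plus strand) stood at 526 CPM in effector memory, 407 in central memory and 293 in naive cells. Psmb9 (ENSMUSG00000096727.3, chromosome 17, 34181987 to 34187764, minus strand) stood at 209 CPM in effector memory, 167 in central memory and 131 in naive cells. Both were highest in effector memory and lowest in naive cells. For effector memory against naive cells the ratio was 1.79 (1.75 to 1.84) for Psmb8 and 1.597 (1.534 to 1.663) for Psmb9, the highest of the 10 genes. For central memory against naive cells it was 1.39 (1.35 to 1.43) for Psmb8 and 1.27 (1.22 to 1.33) for Psmb9, and for effector memory against central memory 1.29 (1.26 to 1.32) for Psmb8 and 1.255 (1.212 to 1.3) for Psmb9. Per kilobase of exon Psmb8 was the most abundant of the 3 subunits, at 155.6 CPM in effector memory, 120.4 in central memory and 86.7 in naive cells.

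Psmb10 (ENSMUSG00000031897.9, chromosome 8, 105935735 to 105938444, minus strand) stood at 122 CPM in effector memory, 148 in central memory and 139.9 in naive cells. It was lowest in effector memory, at 0.874 (0.836 to 0.914) of naive cells and 0.829 (0.795 to 0.864) of central memory. Central memory was at 1.05 (1.01 to 1.10) of naive cells, a ratio below 1 under 3 of the other 4 scalings. The Psmb8 count per Psmb10 count was 4.30 in effector memory, 2.76 in central memory and 2.10 in naive cells. It was 2.05 times as high (1.95 to 2.16) in effector memory as in naive cells.

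**Figure D3:**
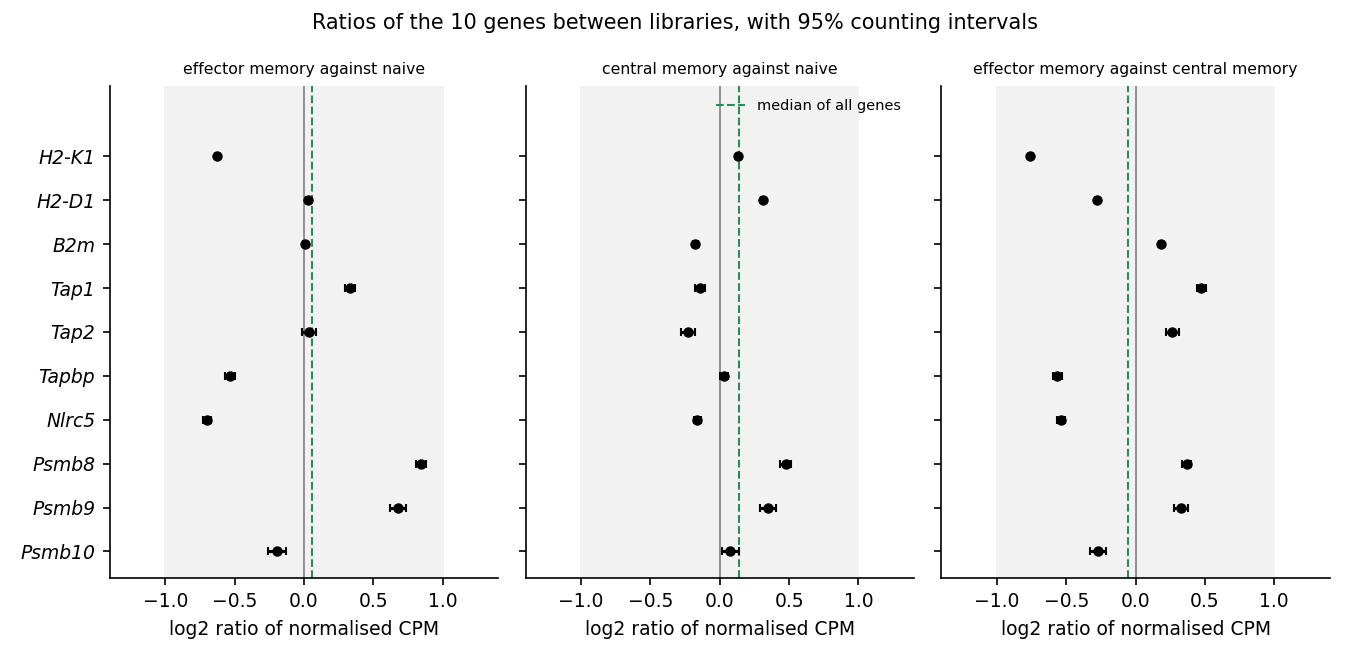
Log2 ratio of normalised CPM for the 10 genes in each of 3 comparisons, with 95% counting intervals as bars; the grey band marks ratios of under 2-fold and the dashed line is the median over all genes at 5 CPM. All points lie inside the grey band, with Psmb8 and Psmb9 at the right and H2-K1, Tapbp and Nlrc5 at the left of effector memory against naive cells.

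As a group the 10 genes had a median log2 ratio of 0.017 for effector memory against naive cells, where all genes at 5 CPM had 0.056. For central memory against naive cells the medians were 0.054 for the 10 genes and 0.14 for all genes. For effector memory against central memory they were -0.043 for the 10 genes and -0.056 for all genes. These medians near 0 hid opposite ratios, since 6 genes stood above 1 and 4 below in effector memory against naive cells, and 5 above and 5 below in effector memory against central memory. The first tally became 3 above and 7 below under total counts and upper quartile factors, where H2-D1, B2m and Tap2 lay below 1, and its intervals were clear of 1 for 4 genes above and 4 below. At a limit of 1.5-fold in place of 2-fold, Psmb8 and Psmb9 were higher in effector memory than in naive cells, where 32.0% of all genes passed in that direction, and H2-K1 and Nlrc5 were lower, where 26.3% did. Together these were 4 of 10, where 58.2% of all genes passed. Under total counts and upper quartile factors that set was Psmb8 higher and H2-K1, Tapbp and Nlrc5 lower. At the same limit 0 of 10 differed between central memory and naive cells, where 32.8% of all genes passed. In effector memory against central memory it was H2-K1 alone, 1 of 10, where 49.4% of all genes passed, 25.3% as lower. Under total counts Tapbp and Nlrc5 joined it, which makes 3 of 10.

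The immunoproteasome subunits each replace a constitutive subunit, Psmb8 for Psmb5, Psmb9 for Psmb6 and Psmb10 for Psmb7. Psmb5 stood at 83.0 CPM in effector memory, 70.9 in central memory and 49.3 in naive cells. Psmb6 stood at 108 CPM in effector memory, 70.1 in central memory and 54.95 in naive cells. Psmb7 stood at 80.8 CPM in effector memory, 46.8 in central memory and 37.7 in naive cells. All 3 were highest in effector memory and lowest in naive cells. Psmb7 was called higher in effector memory than in naive cells, 2.14-fold (1.99 to 2.30), a call lost under upper quartile factors at 1.996-fold. Psmb5 and Psmb6 were at 1.68 (1.58 to 1.80) and 1.97 (1.86 to 2.10).

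The exchanged pairs differed in how their proportion shifted. The Psmb8 count per Psmb5 count was 6.34 in effector memory, 5.74 in central memory and 5.95 in naive cells, and the intervals of both ratios to naive cells included 1. It was 1.105 times as high (1.041 to 1.172) in effector memory as in central memory. The Psmb9 count per Psmb6 count was 1.93 in effector memory, 2.38 in central memory and 2.39 in naive cells, 1.23-fold lower (1.15 to 1.33) in effector memory than in naive cells. The Psmb10 count per Psmb7 count was 1.51 in effector memory, 3.15 in central memory and 3.71 in naive cells. This pair shifted most. It was 2.45-fold lower (2.25 to 2.67) in effector memory than in naive cells, 2.08-fold lower (1.93 to 2.24) in effector memory than in central memory and 1.18-fold lower (1.08 to 1.29) in central memory than in naive cells.

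Per kilobase of exon, Psmb10 stood at 3.04 times Psmb7 in effector memory, 6.32 times in central memory and 7.45 times in naive cells. On the same scale Psmb8 stood at 1.69, 1.53 and 1.58 times Psmb5, and Psmb9 at 0.988, 1.22 and 1.22 times Psmb6, in the same order of libraries. The exon lengths used were 1705 bases for Psmb10 and 3421 for Psmb7. They were 3381 for Psmb8 and 899 for Psmb5, and 3660 for Psmb9 and 1872 for Psmb6. The size of these proportions depends on those lengths. The 3 immunoproteasome subunits summed, per count of the 3 constitutive ones, gave 3.15 in effector memory, 3.84 in central memory and 3.98 in naive cells. That is 1.26-fold lower (1.21 to 1.32) in effector memory than in naive cells, with an interval that included 1 for central memory against naive cells. Of the 50-base stretches of Psmb5, 57.1% occurred in another annotated gene, Psmb5-ps among them, and Psmb7 overlaps Nek6 on the other strand, so reads of these 2 genes are less certainly assigned. A ratio of this kind shows unequal change and not which partner changed.

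**Figure D4:**
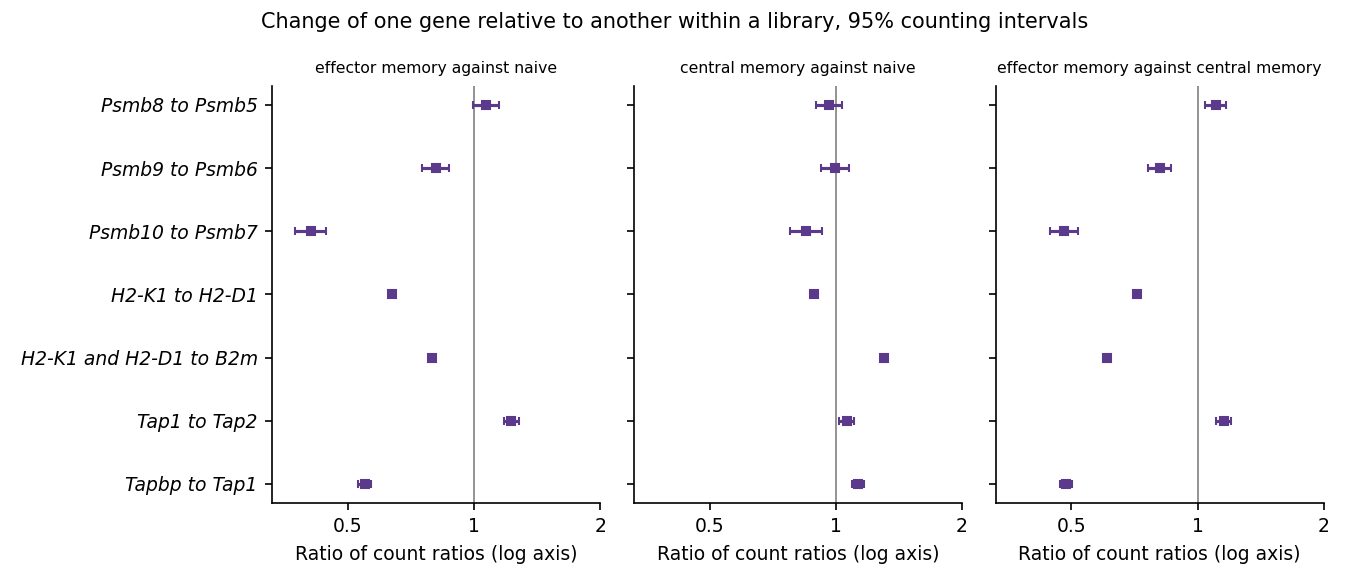
Ratio of 1 gene's count to another's in the first library of a comparison divided by the same ratio in the second (log axis), with 95% conditional exact counting intervals as bars. Psmb10 to Psmb7 lies furthest below 1 in effector memory, at 0.408 against naive cells, while Psmb8 to Psmb5 lies between 0.965 and 1.105 in the 3 comparisons.

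The other subunits of the 20S core, which hold the catalytic subunits in place, had ratios above 1 throughout in effector memory. Of 11 genes, 6 were called higher and 0 lower against naive cells, with a median log2 ratio of 1.0, where 22.3% of all genes were called higher. Under the other 4 scalings it was 5, with Psma2 lost in each. Psmb2 stood at 155.5 CPM in effector memory and 38.7 in naive cells, 4.01-fold higher (3.76 to 4.29), and Psma1 at 236 and 73.9 CPM, 3.19-fold higher (3.04 to 3.35). Psma5 and Psma4 were 2.53-fold higher (2.38 to 2.69) and 2.40-fold higher (2.27 to 2.53), and 54.5% and 25.6% of their 50-base stretches occurred in another annotated gene. Against central memory 3 of 11 were called higher in effector memory, Psma4, Psma1 and Psmb2, where 14.8% of all genes were. In central memory against naive cells 0 of 11 were called, where 11.2% of all genes were higher and 5.12% lower.

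Relative to the summed count of these 11 subunits, Psmb10 was 2.49-fold lower (2.37 to 2.61) in effector memory than in naive cells. Psmb9 was 1.361-fold lower (1.304 to 1.421) and Psmb8 1.21-fold lower (1.18 to 1.25) on the same measure. The constitutive subunits Psmb5, Psmb6 and Psmb7 together were lower on it too, 1.134-fold (1.089 to 1.181). In CPM, Psmb8 and Psmb9 stood higher in effector memory than in naive cells, at ratios of 1.79 and 1.597. The subunits of PA28, Psme1 and Psme2, which form the interferon-inducible cap that opens the core, were together 2.05-fold lower (1.99 to 2.11) relative to the core. Psme1 itself stood at 278 CPM in effector memory, 286 in central memory and 286 in naive cells, with a ratio of 0.975 (0.946 to 1.01) for effector memory against naive cells. Psme2 stood at 152 CPM in effector memory, 111 in central memory and 120.0 in naive cells. Of the 4 activator genes 0 were called in any comparison, where 37.9%, 16.3% and 27.6% of all genes were, with median log2 ratios between -0.057 and 0.071. These measures against the core were chosen after the values were seen.

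The 19S regulatory particle, which unfolds and feeds substrates, had 4 of 18 genes called higher and 0 lower in effector memory against naive cells (median log2 ratio 0.79), a share like that of all genes, 22.3% of which were called higher. Psmd13 was 2.70-fold higher (2.55 to 2.86) and Psmd8 2.54-fold higher (2.41 to 2.68). The calls of Psmd1 and Psmd14, at 2.04-fold and 2.01-fold, were lost under total counts, DESeq2 size factors and upper quartile factors, which leaves 2 of 18, and that of Psmd14 also under TMM factors from genes with at least 10 counts. Against central memory 2 of 18 were called higher in effector memory, where 14.8% of all genes were, Psmd12 at 2.39-fold (2.26 to 2.53) and Psmc6 at 2.37-fold (2.25 to 2.49). Among 5 assembly factors, 4 reached 5 CPM and 1 of them was called higher in effector memory against naive cells, where 22.3% of all genes were. Pomp, the chaperone that matures new core particles, was 2.21-fold higher (2.08 to 2.35) in effector memory than in naive cells, at 113 and 51.3 CPM.

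Factors that trim peptides or help load them were called in both directions. Of 8 genes, 1 was called higher and 2 lower in effector memory against naive cells (median log2 ratio 0.24), where 22.3% of all genes were called higher and 15.6% lower. In central memory against naive cells 0 of 8 were called, where 16.3% of all genes were. Pdia3, the disulphide isomerase ERp57 of the loading complex, stood at 713 CPM in effector memory, 336 in central memory and 283 in naive cells, 2.52-fold higher (2.46 to 2.59) in effector memory than in naive cells. Erap1, the aminopeptidase that trims peptides in the endoplasmic reticulum, stood at 117 CPM in effector memory, 197.5 in central memory and 255 in naive cells, 2.18-fold lower (2.09 to 2.27) in effector memory than in naive cells. Tapbpl, the tapasin-related editor TAPBPR, stood at 59.3 CPM in effector memory, 112 in central memory and 139.5 in naive cells, 2.35-fold lower (2.23 to 2.49). Tapbp and Tapbpl thus had their lowest level in the same library. Against central memory, Canx, the chaperone calnexin, and Pdia3 were higher in effector memory, 2.20-fold (2.14 to 2.25) and 2.12-fold (2.08 to 2.17), 2 of 8, where 14.8% of all genes were called higher, or 3 with Npepps under 3 of the other 4 scalings.

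Non-classical class I genes differed more widely than the 10 genes. Of 13 genes, 11 reached 5 CPM, and 1 was called higher and 4 lower in effector memory against naive cells (median log2 ratio -0.72), where 22.3% of all genes were called higher and 15.6% lower. H2-T24 stood at 5.03 CPM in effector memory, 45.3 in central memory and 84.1 in naive cells, 16.7-fold lower (14.2 to 19.7) in effector memory than in naive cells. Cd1d1, which presents lipids to natural killer T cells, was 4.30-fold lower (3.77 to 4.90), and H2-M3, which presents formylated peptides, was 2.53-fold lower (2.33 to 2.75). Part of Cd1d1 is shared with its near copy Cd1d2, 25.8% of 50-base stretches.

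H2-Q10 had the opposite direction. It stood at 70.5 CPM in effector memory, 4.61 in central memory and 6.18 in naive cells, 11.4-fold higher (9.76 to 13.4) in effector memory than in naive cells. Of its 50-base stretches, 19.7% occurred in another gene, with H2-Q7 sharing the most, which stood at 644 CPM in effector memory, 818 in central memory and 877 in naive cells. Against central memory 1 of 11 was called higher and 4 lower in effector memory, where 14.8% and 12.8% of all genes were. The lower ones included H2-T23, which encodes Qa-1, a ligand of the NKG2A receptor, at 2.29-fold (2.23 to 2.35). H2-T23 stood at 247 CPM in effector memory, 565 in central memory and 567 in naive cells. In central memory against naive cells 0 of 11 were called, where 16.3% of all genes were, or 1, H2-T24 as lower, under DESeq2 size factors and upper quartile factors.

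**Figure D5:**
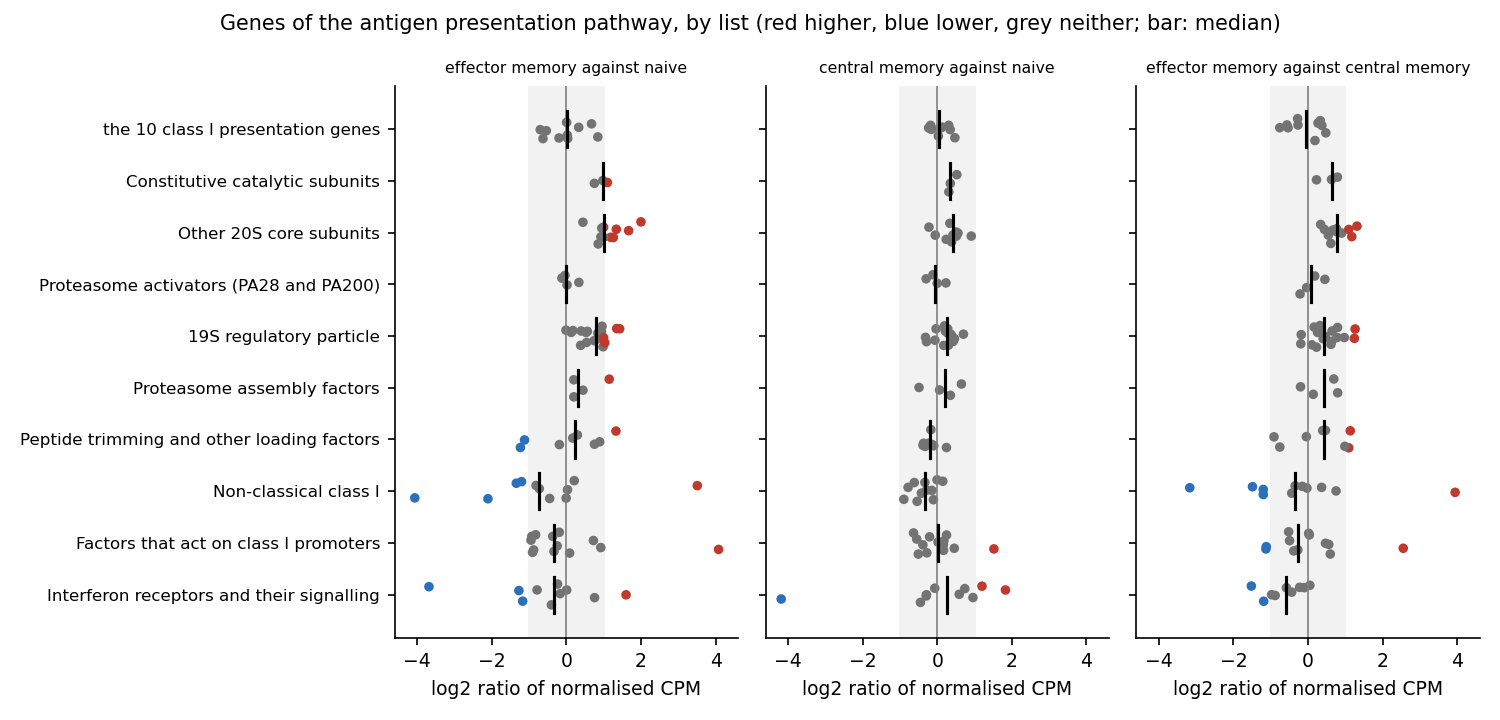
Log2 ratio of normalised CPM for each gene that reached 5 CPM in a comparison, by list; red points were called higher, blue lower, grey neither, and black bars are list medians. The 10 class I presentation genes sit between -1 and 1 in every panel, while the 20S core lies to the right in effector memory against naive cells and the non-classical genes spread from -4.06 to 3.51 in that comparison.

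Among 14 factors that act on class I promoters, 13 reached 5 CPM in effector memory against naive cells, of which 1 was called higher and 0 lower (median log2 ratio -0.33), where 22.3% of all genes were called higher and 15.6% lower. Irf8, an interferon regulatory factor, stood at 111 CPM in effector memory, 18.9 in central memory and 6.58 in naive cells, 16.9-fold higher (14.5 to 19.7) in effector memory and 2.87-fold higher (2.43 to 3.40) in central memory than in naive cells. Irf1, Creb1 and Rfx5 were uncalled, with Irf1 at 152 CPM in effector memory, 218 in central memory and 285 in naive cells. Under total counts and upper quartile factors Irf1, Creb1 and Rfx5 were called lower, which makes 3 of 13. In central memory against naive cells Irf8 was the 1 gene of 13 called, where 16.3% of all genes were. Against central memory, 1 of 13 was called higher and 2 lower in effector memory, where 14.8% of all genes were called higher and 12.8% lower. Irf8 was 5.87-fold higher (5.41 to 6.39), Irf2 was 2.18-fold lower (2.06 to 2.31), and Rfx5, a subunit of the RFX complex that binds the X box, was 2.18-fold lower (2.01 to 2.36). Ciita, the class II relative of Nlrc5, stood at 0.563 CPM in effector memory, 1.34 in central memory and 2.55 in naive cells.

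Interferon receptors and their signalling genes were called in both directions. Of 11 genes, 10 reached 5 CPM in both comparisons with naive cells. In effector memory 1 was called higher and 3 lower, where 22.3% and 15.6% of all genes were. In central memory 2 were called higher and 1 lower, where 11.2% and 5.12% of all genes were. Ifngr1, the ligand-binding chain of the interferon gamma receptor, stood at 412 CPM in effector memory, 482.5 in central memory and 136 in naive cells, 3.03-fold higher (2.92 to 3.14) in effector memory and 3.55-fold higher (3.42 to 3.68) in central memory. Ifngr2, its signalling chain, stood at 3.35 CPM in effector memory, 2.37 in central memory and 43.0 in naive cells, 12.9-fold lower (10.5 to 15.8) in effector memory and 18.1-fold lower (14.5 to 22.9) in central memory. The 2 chains of 1 receptor thus had opposite ratios. Jak1 and Irf9 were 2.25-fold lower (2.21 to 2.29) and 2.41-fold lower (2.28 to 2.56) in effector memory than in naive cells, and Socs1, a feedback inhibitor, was 2.29-fold higher (2.08 to 2.53) in central memory than in naive cells. Ifnar2 and Ifnar1, the chains of the type I interferon receptor, were 2.87-fold lower (2.68 to 3.08) and 2.29-fold lower (2.21 to 2.37) in effector memory than in central memory, 2 of the 9 genes that reached 5 CPM there, where 12.8% of all genes were called lower, or 3 with Irf9 under total counts. Ifng itself stood at 1.28 CPM in effector memory, 1.06 in central memory and 0.180 in naive cells.

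Of the 10 genes, 7 lie on chromosome 17, in the major histocompatibility complex, and 4 of them in 34335 bases from Psmb9 to Tap2 (34181987 to 34216321). For effector memory against naive cells the ratios along this stretch were 1.597 for Psmb9, 1.26 for Tap1, 1.79 for Psmb8 and 1.03 for Tap2. Neighbours gave no common direction. Brd2, a bromodomain protein upstream, was at 0.686 of naive cells, and the class II genes beyond Tap2 were at 0.0548 for H2-Ob and 8.86 for H2-Ab1. Psmb9 and Tap1, which share their promoter stretch, overlap by 212 bases on opposite strands. The Psmb9 count per Tap1 count was 0.398 in effector memory, 0.4403 in central memory and 0.314 in naive cells, 1.27 times as high (1.21 to 1.33) in effector memory and 1.41 times as high (1.34 to 1.47) in central memory as in naive cells.

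Taking each gene's log2 CPM centred over the 3 libraries, the mean profile of the 10 genes was nearly flat, at -0.031 in effector memory, 0.048 in central memory and -0.018 in naive cells. Of 7962 other genes with at least 20 CPM in a library, Ccdc88b, Zfp706, Snx12, Nelfb and Wdr18 lay nearest to it by Euclidean distance. Ccdc88b stood at 365 CPM in effector memory, 384.5 in central memory and 368 in naive cells. A distance of up to 0.2 from the mean profile took in 775 of these genes but 2 of the 10, so the mean profile describes few of the genes it was made from.

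The 10 genes together took 0.895% of all counts in effector memory (exact binomial 95% interval 0.891% to 0.898%), 1.129% in central memory (1.125% to 1.132%) and 1.091% in naive cells (1.087% to 1.095%). H2-K1, H2-D1 and B2m made up most of this, at 0.662%, 0.883% and 0.838% of all counts in the same order. H2-K1 alone took 0.233% of counts in effector memory, 0.408% in central memory and 0.385% in naive cells.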

How the data were processed

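Per the file headers and values, the authors deposited unnormalised counts of reads per gene name, whole numbers, in a column for each library. The columns TEM, TCM and TN were read as abbreviations of the sample titles. Of the upstream tools, the submitters' processing notes list CASAVA, then HISAT2 (2.0.5) and featureCounts (1.5.0-p3), with mm10 as the genome. No source used here gives the annotation, the strand setting or the treatment of reads with several matches. Total counts of 26876909 to 35846315 per library set the counting precision, and a count of 0 would allow up to 0.0837 to 0.108 CPM (3 counts).

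Scaling used TMM factors (edgeR 4.0.16, R 4.3.3). Ratios of CPM have exact (Clopper-Pearson) intervals, and ratios of count ratios have conditional exact intervals. The ratios, their intervals and the calls were checked on simulated counts, and the conditional intervals against SciPy's. The simulated counts held counting error and no spread between animals or preparations, so that spread was not checked. With 1 library per group no p-value was computed. Alternatives for the scaling were library totals, size factors from DESeq2 (1.42.0), upper quartiles and TMM over genes with at least 10 counts, and other limits were tried for the calls. Lengths and coordinates are from GENCODE (GRCm38), which held 98.7% of the names. The scripts ran in Python 3.11.15 with pandas 2.3.3, SciPy 1.17.1 and NumPy 2.4.6.

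The 10 genes, the 9 further lists and the markers were chosen with earlier results of these data known. All 10 genes and Psmb5, Psmb6 and Psmb7 are named, with up to 4 called genes per other list and comparison, and the 5 genes nearest in profile. Genes named beyond this rule (such as Psma2, Psme1, Psme2, Npepps, Irf1, Creb1, Ciita, Ifng, H2-Q7 and the chromosome 17 neighbours) were chosen after their values were seen.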

Additional observations from a re-analysis of the deposited data

How the results depend on the processing

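No paired analysis was possible because each group has 1 library. Calls among the 10 genes stayed at 0 in the 3 comparisons under total counts, DESeq2 size factors, upper quartile factors, TMM from genes with at least 10 counts, minimum levels of 1 and 20 CPM, a ratio of 3 and without H2-K1 and H2-D1. At a ratio of 1.5 they became 4 in effector memory against naive cells and 1 in effector memory against central memory. The scaling shifted all log2 ratios by up to -0.10 for effector memory against naive cells, -0.13 for central memory against naive cells and 0.092 for effector memory against central memory, so the sign of the medians is not fixed. For effector memory against naive cells the median log2 ratio of the 10 genes was -0.082 under total counts, -0.014 under DESeq2 size factors and -0.085 under upper quartile factors. For central memory against naive cells it was 0.0027, -0.054 and -0.071 under these, -0.049 under the filtered TMM and -0.056 without H2-K1 and H2-D1. For effector memory against central memory it was -0.091 under total counts, 0.033 under DESeq2 size factors, 0.049 under the filtered TMM and 0.23 without H2-K1 and H2-D1. The filtered TMM was chosen for the medians, single genes and lists after seeing the data. Of 120 ratios of single genes under other scalings, 16 lay on the other side of 1, between 0.937 and 0.998. The ratio of immunoproteasome to constitutive subunits was 0.706 and 0.755 as a geometric mean of the 3 pairs in effector memory, against naive cells and against central memory, and 0.903 per kilobase in central memory against naive cells.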
